A study of Homo sapiens with 10 samples.

Results

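The 32 genes described here encode proteins that build ribosomes, or that feed them with nucleotides and polyamines, and are known in other cells as genes whose promoters MYC binds. They were chosen by symbol from a list of known MYC-bound genes, with earlier results of these data known. Shares of calls among them are therefore a description only. All 32 were found among the 19215 gene symbols of the count files. All 32 also passed the filter on low counts, which left 13349 genes for testing. MYC binding was not measured in these libraries, so the name of the list rests on earlier knowledge and not on these data. RNA was sequenced from 10 libraries of human liver tumour lines in 4 groups. These were HepG2 cells with the miR-17 TuD (3 libraries), HepG2 cells with the NC TuD (3 libraries), SK-Hep1 cells with the miR-17 TuD (2 libraries) and SK-Hep1 cells with the NC TuD (2 libraries). A tough decoy (TuD) is a hairpin RNA that binds a microRNA and blocks it. The miR-17 TuD is directed at the miR-17 family and the NC TuD is its negative control. Every cell, controls included, had therefore been infected with viral particles at a multiplicity of infection of 5 for 48 h. Polybrene was at 10 µg/mL and serum at 10%. Selection with puromycin at 1 µg/mL lasted 2 weeks, and the resistant colonies of each arm had been pooled into 1 stable line. Whether replicates were grown as separate cultures is not given, so p-values measure the spread between libraries, which may be technical. An effect of the decoy and a difference between the stable lines that were made cannot be told apart in this design.

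Ribosome assembly starts in the nucleolus, where RNA polymerase I copies the ribosomal DNA into a long precursor. Small nucleolar ribonucleoproteins (snoRNPs) then guide methylation and pseudouridylation of that precursor, and separate sets of factors cut and fold the parts for the small and the large subunit. MYC, a transcription factor that pairs with MAX, binds the E-box CACGTG and is known to raise transcription of many genes of this pathway. MicroRNAs of the miR-17 family pair through their seed, bases 2 to 8, with sites in 3′ untranslated regions (3′UTRs) and lower the level of those messages. Several of the family come from the MIR17HG cluster, which is itself a known MYC target.

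The mature microRNAs below carry the seed at which the decoy is directed, and are shown to define it, with the seed in capitals (RefSeq, GRCh38.p14). Mature microRNA was not measured in these libraries. In all, 8 mature human microRNAs in the RefSeq table shared this seed, and 4 of them are printed.
hsa-miR-17-5p: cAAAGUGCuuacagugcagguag
hsa-miR-20a-5p: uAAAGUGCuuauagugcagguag
hsa-miR-93-5p: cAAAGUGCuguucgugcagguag
hsa-miR-106b-5p: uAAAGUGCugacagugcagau

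Sites for this seed were few among the 32 genes. In the longest 3′UTR of each gene in GENCODE 29, an 8mer (GCACTTTA) or 7mer-m8 (GCACTTT) was found in 4 of 32, or 12.5%, against 25% of 12730 tested genes with a 3′UTR under the same symbol. WDR12 held an 8mer, and LDHA, NIP7 and NPM1 held a 7mer-m8. The 32 genes had shorter 3′UTRs, with a median of 515 bases against 1343 bases over the tested genes.

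Promoters were searched for the E-box that MYC binds. RefSeq (GRCh38.p14) gave a window of 250 bases before to 50 after a transcription start for 26 of the 32 genes, in 33 windows. CACGTG, which reads the same on both strands, was present in at least 1 window of 13 of these 26 genes, or 50%. The same letters were present for 12.3% of 10080 tested genes with a window and for 8.74% of all 27167 genes in the table. Among genes lower in HepG2 with the miR-17 TuD, as described further on, 8 of 14 with a window held it (57.1%), and among those not called 5 of 12 did (41.7%). A related E-box, CACGCG or its reverse complement, was present in 4 of 26 genes (15.4%), against 22% of the tested genes. These are matches of letters, not measured binding sites. The 4 promoters shown belong to the genes lower in HepG2 with the smallest adjusted p among those that hold CACGTG, which is in capitals. They are printed from 250 bases before to 30 bases after the start, 5′ to 3′ on the strand of the gene. The positions are chr3:52685782-52686061 (plus strand) for GNL3, chr4:56435586-56435865 (minus strand) for PPAT, chr2:10447983-10448262 (minus strand) for ODC1 and chr19:39846350-39846629 (minus strand) for FBL.
GNL3: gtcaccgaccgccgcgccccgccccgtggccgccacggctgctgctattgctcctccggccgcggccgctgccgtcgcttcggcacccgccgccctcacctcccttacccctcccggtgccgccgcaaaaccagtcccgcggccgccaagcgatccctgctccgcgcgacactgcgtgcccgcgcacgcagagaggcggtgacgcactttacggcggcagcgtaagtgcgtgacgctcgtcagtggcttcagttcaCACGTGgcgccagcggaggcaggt
PPAT: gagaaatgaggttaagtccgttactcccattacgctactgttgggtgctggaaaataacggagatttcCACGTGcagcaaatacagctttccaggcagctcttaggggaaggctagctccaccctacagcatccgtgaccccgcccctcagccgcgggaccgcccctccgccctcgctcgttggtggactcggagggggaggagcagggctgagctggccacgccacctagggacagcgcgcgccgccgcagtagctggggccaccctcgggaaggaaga
ODC1: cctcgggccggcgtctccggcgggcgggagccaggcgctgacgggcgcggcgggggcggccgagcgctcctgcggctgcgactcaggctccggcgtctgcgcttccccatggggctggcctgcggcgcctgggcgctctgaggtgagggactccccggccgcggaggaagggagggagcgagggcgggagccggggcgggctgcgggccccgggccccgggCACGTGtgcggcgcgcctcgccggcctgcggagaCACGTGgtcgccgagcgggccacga
FBL: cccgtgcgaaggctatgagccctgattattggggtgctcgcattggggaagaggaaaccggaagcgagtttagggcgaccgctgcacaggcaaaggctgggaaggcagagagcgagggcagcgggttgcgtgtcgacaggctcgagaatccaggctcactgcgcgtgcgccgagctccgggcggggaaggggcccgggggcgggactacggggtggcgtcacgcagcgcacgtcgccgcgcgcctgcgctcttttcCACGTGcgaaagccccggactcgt

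Counted from the start site, the E-box of GNL3 began at base 7 and that of FBL also at base 7, inside the first transcribed bases. ODC1 held a pair of E-boxes, which began at bases -29 and 6, and the E-box of PPAT lay further upstream at base -182.

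Each library held 12884225 to 15076431 counts in genes. Levels are given as CPM, that is, counts divided by the library total and scaled up to a common total, with TMM factors, and 1 count was worth 0.0663 to 0.0776 CPM. The rarest of the 32 was PPAN, with at least 71 counts in every library, and each of the others had at least 435. Reads with no unique alignment, which were left out of the gene counts, made up 4.47% to 5.04% of each column, so the levels of genes with near-identical processed copies elsewhere in the genome (NPM1, EIF4A1 and LDHA) are uncertain. The kit does not mark the strand, and reads over overlapping genes are ambiguous. The read-through symbol NME1-NME2 held 13 to 47 counts beside 1814 to 2658 for NME1, and PPAN-P2RY11 held 0 to 1 counts. The neighbouring symbol NME2 held 1807 to 2637 counts. The decoy itself was checked on 14 known targets of the miR-17 family, a list chosen with earlier results of these data known. In HepG2, 10 of the 14 were higher with the miR-17 TuD and 0 were lower, by the test described below. Over all genes 10.7% were called higher in HepG2 and 0.667% in SK-Hep1. In SK-Hep1, 6 of 14 were higher and 0 were lower, and between 3 and 4 were higher when any 1 SK-Hep1 library was left out. The zinc finger gene ZNFX1 reached 88.1 ± 1.74 CPM in HepG2 with the miR-17 TuD and 48.7 ± 0.399 CPM with the NC TuD (SD, n = 3 each), and 159.9 ± 6 and 114 ± 2.81 CPM in the same arms of SK-Hep1 (SD, n = 2 each).

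The lines matched their labels on hepatocyte markers, whereas the markers chosen for SK-Hep1 were mixed. Summed over 15 hepatocyte markers, HepG2 libraries held 51585 to 54082 CPM with the miR-17 TuD and 59378 to 61595 CPM with the NC TuD, whereas SK-Hep1 libraries held 78.3 to 83.7 CPM and 87.5 to 110 CPM in those arms, with TTR at 0 in all 4. Of the 15 mesenchymal and endothelial markers chosen for SK-Hep1, 14 were tested. In NC TuD cells 10 were higher in SK-Hep1 than in HepG2 (43.9% of all genes) and 4 were lower (42.8% of all genes). TGFBI was among the lower, at 2.48 CPM against 797 CPM, and ENG was higher, at 67.1 CPM against 3.42 CPM. PECAM1 was at 0 in all 4 SK-Hep1 libraries and CDH5 was at 0 in the miR-17 TuD ones. The endothelial part of that list is thus borne out at most in part. Of the 6 blood cell markers, PTPRC, CD3E and HBB were at 0 in every HepG2 library, while LYZ was at 2196 to 2340 CPM in HepG2 with the miR-17 TuD and 2516 to 2601 CPM with the NC TuD.

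Levels per kilobase of exon spanned a wide range among the 32 genes. NPM1, which encodes nucleophosmin, a nucleolar chaperone, ranked first in every group, at 340 CPM per kb in HepG2 with the miR-17 TuD and 407 with the NC TuD, and at 511 and 528 CPM per kb in the same arms of SK-Hep1. LDHA, EIF4A1, NCL and ODC1 followed within ranks 2 to 5 in all 4 groups. PPAN ranked last, at 2.52 CPM per kb in HepG2 with the miR-17 TuD and 3.02 with the NC TuD, and at 2.22 and 2.23 in SK-Hep1. Some genes held quite different ranks in the lines: IPO4, an importin of nuclear cargo, ranked 20 in both arms of SK-Hep1, against 7 with the miR-17 TuD and 9 with the NC TuD in HepG2.

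In HepG2, the miR-17 TuD went with lower levels of most of the 32 genes, by small amounts. Counts were tested with edgeR's quasi-likelihood test over all 13349 genes, and a gene is said to be called, to rise or to fall, at a two-sided Benjamini-Hochberg adjusted p under 0.05. By this test 17 of the 32 genes fell (53.1%) and 0 rose, where 8.58% of all tested genes were called lower and 10.7% higher. At an unadjusted p under 0.05 only MYBBP1A was higher, and DESeq2 and limma on the deposited log2 values likewise called 0 of the 32 higher. Genes in the same range of mean level (10497 genes between 6.6 and 1710 CPM) were called lower at 10.1%. The median log2 fold change of the 32 genes was -0.14, against 0 over all genes, and 27 of 32 were below 0. Among the 17 called, the median size was 0.15 on the log2 scale. The 3 with the largest falls were PPAT, NPM1 and GNL3, which fell by 16.8%, 16.6% and 16.0%. DESeq2 called 12 of the 32, all among the 17, and 11 calls held under all 17 alternatives tried: those of FBL, NOP56, NOP58, DKC1, NOLC1, NCL, NPM1, GNL3, PPAT, ODC1 and EIF4A1. With total counts as the only scaling, 11 fell and MYBBP1A rose, and the split of all calls was 1822 higher to 764 lower, against 1425 to 1146 with TMM. The hepatocyte markers, also lower in sum in these libraries, moved with this result: 9 of 15 fell and 2 rose (3 and 0 by limma on the deposited log2 values), and their part in it was not tested. In bulk RNA, fewer cells of a type and less RNA per cell cannot be told apart.

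**Figure D1:**
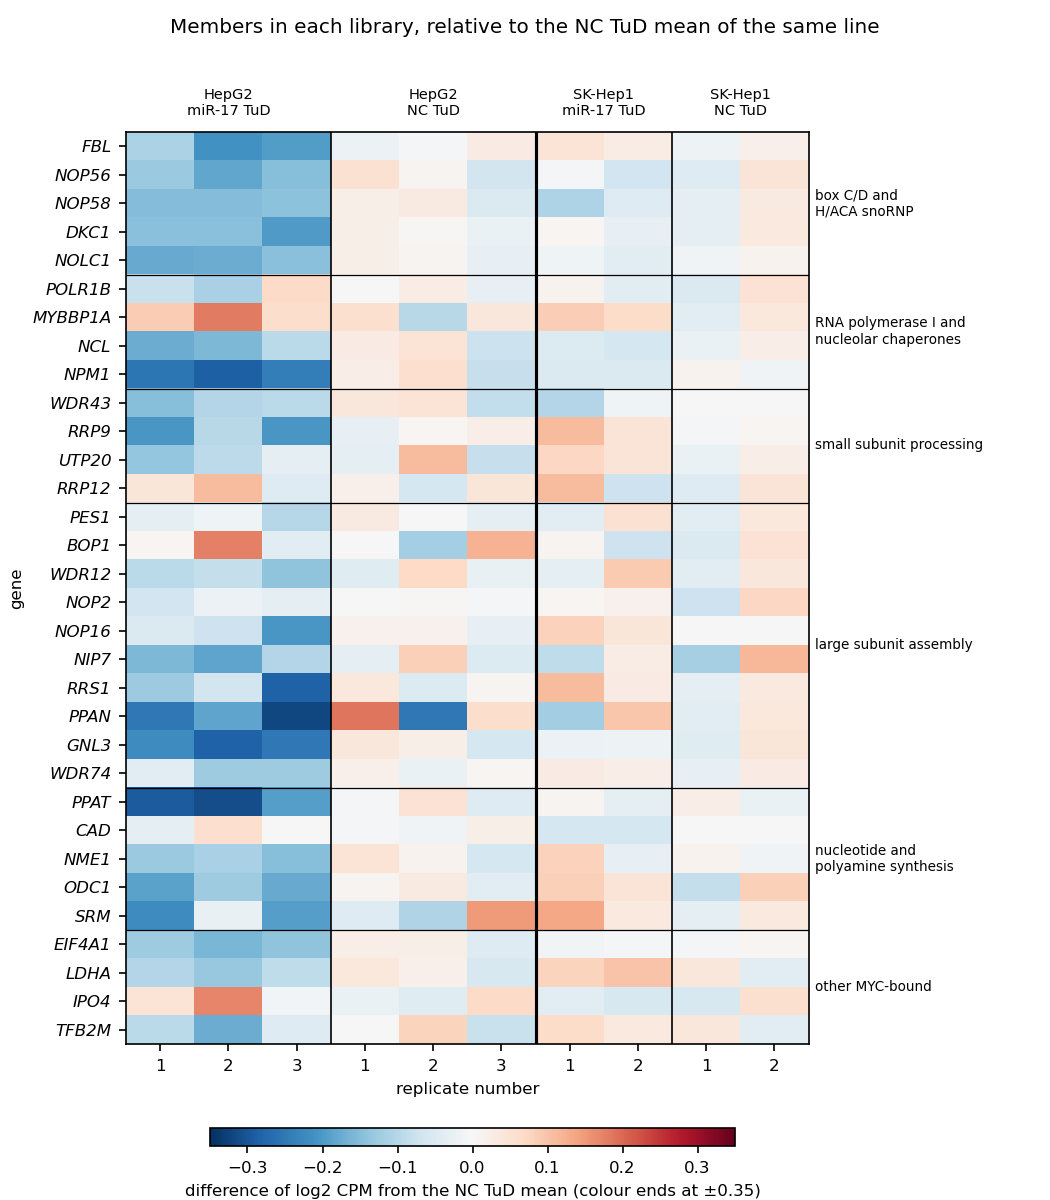
Heat map of the 32 genes (rows, grouped by role) in each of the 10 libraries (columns), coloured by the difference of log2 CPM from the mean of the NC TuD libraries of the same line; blue is lower and red is higher. The 3 HepG2 miR-17 TuD columns are mostly blue, with medians of -0.13, -0.12 and -0.14, while the SK-Hep1 miR-17 TuD columns are mixed, with medians near 0.

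The shift was present in each HepG2 library with the miR-17 TuD. Taken against the mean of the NC TuD libraries, the 32 genes had a median log2 difference of -0.13, -0.12 and -0.14 in miR-17 TuD replicates 1, 2 and 3, with 28, 27 and 29 genes below 0. The NC TuD libraries themselves lay at 0.017, 0.011 and -0.030. For 21 of the 32 genes every miR-17 TuD library was below every NC TuD library, where 14.9% of all genes showed this, and for 1 gene, MYBBP1A, every miR-17 TuD library was above, where 16.1% of all genes did.

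All 5 snoRNP genes chosen for the list were called lower in HepG2, where 8.58% of all genes were. All 5 calls held under every alternative. Of 13 further snoRNP genes, described below, 2 were called lower (15.4%), although all 13 were below 0. FBL encodes fibrillarin, the methyltransferase of box C/D snoRNPs. It stood at 166, 154 and 156 CPM in HepG2 with the miR-17 TuD, against 176, 178 and 182 CPM with the NC TuD. All 3 miR-17 TuD libraries were below all 3 NC TuD libraries, and the log2 fold change was -0.17 ± 0.041 (SE, here and below; edgeR's quasi-likelihood test, Benjamini-Hochberg adjusted p = 0.00136). NOLC1, a chaperone that carries snoRNPs to the nucleolus, had 261, 262 and 267 CPM with the miR-17 TuD, against 299, 297 and 289 CPM with the NC TuD. NOP56, a core box C/D protein, had 549.8, 529.9 and 543 CPM, against 624, 606 and 576 CPM. Neither gene's groups overlapped, and the log2 fold changes were -0.165 ± 0.036 for NOLC1 (adjusted p = 0.000482, edgeR) and -0.15 ± 0.035 for NOP56 (adjusted p = 0.000843, edgeR). NOP58, the partner of NOP56, and DKC1, the pseudouridine synthase of H/ACA snoRNPs, fell by 0.15 and 0.16 on the log2 scale.

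Of the genes for RNA polymerase I and nucleolar chaperones, NPM1 and NCL fell, and POLR1B and MYBBP1A did not pass the test. NPM1 stood at 1306, 1277 and 1316 CPM in HepG2 with the miR-17 TuD, against 1582, 1620 and 1471 CPM with the NC TuD, groups that lay clearly apart. Its log2 fold change was -0.26 ± 0.033 (edgeR adjusted p = 6.76e-09), the smallest adjusted p of the 32. NCL, which encodes nucleolin, a protein that binds nascent ribosomal RNA, had 1551, 1570 and 1639 CPM with the miR-17 TuD, against 1784, 1808 and 1662 CPM with the NC TuD. The NCL groups came close but did not overlap, at a log2 fold change of -0.14 ± 0.033 (edgeR adjusted p = 0.000879). POLR1B, the second-largest subunit of RNA polymerase I, differed by -0.040 ± 0.048. MYBBP1A, a nucleolar protein known to restrain ribosomal RNA synthesis, had 142, 151 and 139 CPM with the miR-17 TuD, against 139, 125 and 137 CPM with the NC TuD. It was the only member with all miR-17 TuD libraries above all NC TuD libraries, at a log2 fold change of 0.11 ± 0.045 that missed the threshold (edgeR adjusted p = 0.0785). Its call appeared without miR-17 TuD replicate 3 and with total counts as the only scaling.

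Among small subunit processing genes, RRP9 and WDR43 fell, and UTP20 and RRP12 were not called. RRP9, which binds the U3 snoRNA, had 48.2, 52.0 and 48.3 CPM in HepG2 with the miR-17 TuD, against 54.5, 55.8 and 56.5 CPM with the NC TuD. WDR43, a part of the complex that joins transcription to processing, had 186, 193 and 194 CPM, against 212, 214 and 195 CPM. RRP9 groups were apart, whereas those of WDR43 nearly touched. The log2 fold changes were -0.17 ± 0.057 for RRP9 (edgeR adjusted p = 0.032) and -0.12 ± 0.041 for WDR43 (edgeR adjusted p = 0.0386). Both calls were fragile: RRP9 lost its call under 8 of 17 alternatives, among them without any HepG2 library other than miR-17 TuD replicate 2, and WDR43 under 10, among them without replicate 1 or 2 of either HepG2 arm. UTP20, a scaffold of early assembly, differed by -0.088 ± 0.045 and RRP12, an export factor, by 0.037 ± 0.051.

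Large subunit assembly was the role least often called, with 2 of 10 genes, where 8.58% of all genes were called lower. Of these 10 genes, 9 were below 0. GNL3 encodes nucleostemin, a nucleolar GTPase of dividing cells. Its levels were 188, 180.2 and 184 CPM in HepG2 with the miR-17 TuD, against 225, 222 and 210.1 CPM with the NC TuD. The groups lay apart by more than the range within either, at a log2 fold change of -0.25 ± 0.040 (edgeR adjusted p = 2.52e-06). NIP7, which acts in pre-rRNA processing, had 99.97, 98.1 and 104 CPM with the miR-17 TuD, against 109, 118 and 108 CPM with the NC TuD. The NIP7 groups did not overlap, at -0.15 ± 0.050 (edgeR adjusted p = 0.0294), but the call failed under 7 of 17 alternatives, among them without replicate 2 of either HepG2 arm and without replicate 1 of the miR-17 TuD arm. RRS1, which brings the 5S particle into the subunit, differed by -0.15 ± 0.058 and just missed (edgeR adjusted p = 0.0542), and was called without replicate 2 of either HepG2 arm. PES1, BOP1 and WDR12 form the PeBoW complex, and they differed by -0.048 ± 0.044, 0.048 ± 0.055 and -0.11 ± 0.049. PPAN differed by -0.26 ± 0.133, as large as GNL3 but with an interval from -0.53 to 0.002 at its low counts.

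**Figure D2:**
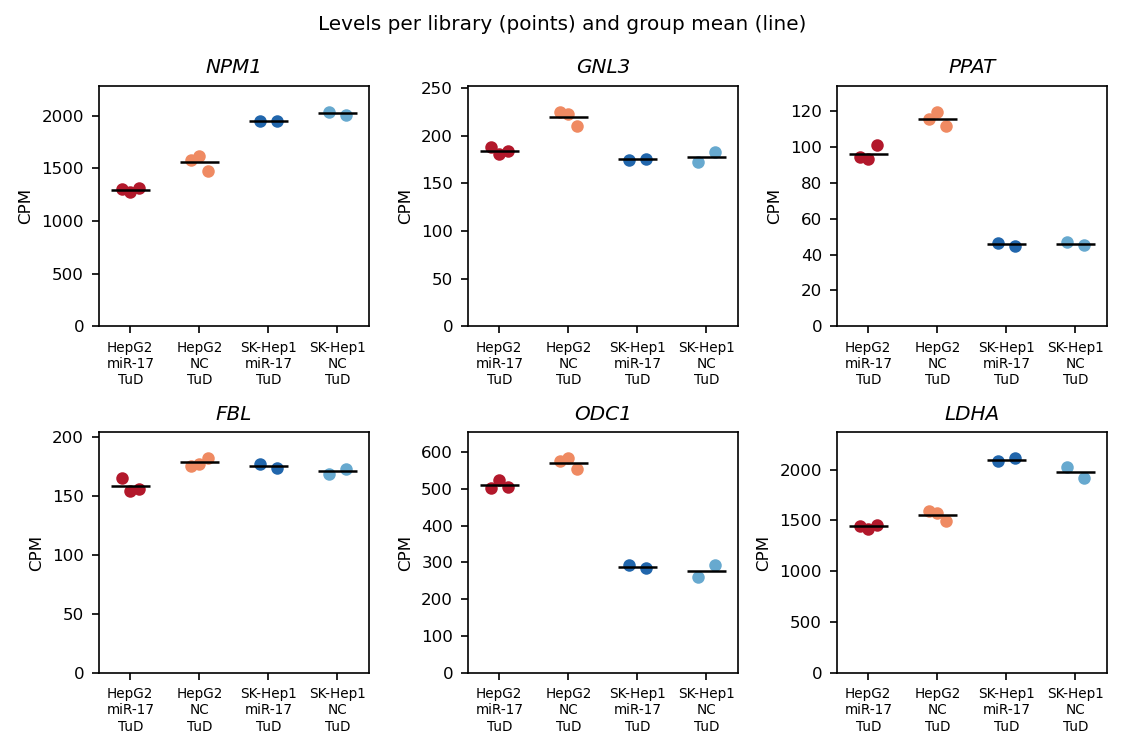
CPM in every library (points) and group means (lines) for NPM1, GNL3, PPAT, FBL, ODC1 and LDHA, in HepG2 with the miR-17 TuD and the NC TuD and in SK-Hep1 with the miR-17 TuD and the NC TuD; each vertical axis starts at 0. In HepG2 the miR-17 TuD points lie below the NC TuD points in all 6 panels, while in SK-Hep1 the points of the arms lie close together.

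Nucleotide and polyamine genes fell in 4 of 5 cases. PPAT, which catalyses the first committed step of purine synthesis, had 94.6, 93.2 and 101 CPM in HepG2 with the miR-17 TuD, against 115, 119.7 and 112 CPM with the NC TuD. ODC1, ornithine decarboxylase, makes the polyamine putrescine and had 502, 524 and 506 CPM, against 575, 583 and 555 CPM. Both genes had groups that lay apart, with log2 fold changes of -0.27 ± 0.048 for PPAT (edgeR adjusted p = 2.32e-05) and -0.16 ± 0.036 for ODC1 (edgeR adjusted p = 0.000617). NME1, a nucleoside diphosphate kinase, had a log2 fold change of -0.13 and SRM, spermidine synthase, one of -0.15. SRM was the only called gene whose groups overlapped, since miR-17 TuD replicate 2, at 118 CPM, was above NC TuD replicates 1 and 2, at 117 and 112 CPM. Its call was lost under 12 of 17 alternatives, among them without replicate 1 or 3 of either HepG2 arm or without either SK-Hep1 NC TuD library, and that of NME1 under 4, among them without replicate 1 of either HepG2 arm. CAD, which starts pyrimidine synthesis, was level, at 0.009 ± 0.044.

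The remaining genes divided evenly. EIF4A1, the helicase that unwinds message leaders for translation, had 1125, 1097 and 1112 CPM in HepG2 with the miR-17 TuD, against 1247, 1245 and 1189 CPM with the NC TuD. LDHA, lactate dehydrogenase A, had 1445, 1416 and 1458 CPM, against 1591, 1571 and 1493 CPM. Neither pair of groups overlapped. The log2 fold changes were -0.14 ± 0.031 for EIF4A1 (edgeR adjusted p = 0.000472) and -0.11 ± 0.032 for LDHA (edgeR adjusted p = 0.011), and the LDHA call was lost without NC TuD replicate 1 and with total counts as the only scaling. IPO4 differed by 0.071 ± 0.040 and was called higher without miR-17 TuD replicate 3, and TFB2M, a mitochondrial transcription factor, differed by -0.11 ± 0.065.

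In SK-Hep1, no such shift was measured. Of the 32 genes 0 were called lower and 0 higher by edgeR, where 0.202% of all genes were called lower and 0.667% higher. DESeq2 likewise called 0, and 1 gene, LDHA, had an unadjusted p under 0.05. The median log2 fold change was 0, with 16 genes below 0 and 16 above. Groups did not overlap for 6 genes that were lower and 6 that were higher, and with 2 libraries a side 21.9% and 18.4% of all genes did so. Single log2 fold changes ran from -0.077 for NOP58 to 0.088 for LDHA. With 2 libraries in each arm the test was less precise. For 31 of the 32 genes, PPAN being the exception, the lower bound of the 95% confidence interval was above -0.2. As a common bound, -0.2 is beyond the median size of the falls called in HepG2 (0.15), so by itself it does not exclude falls of that size. Single intervals differed in this: among the 17 genes called in HepG2, the lower bounds in SK-Hep1 ran from -0.184 for NIP7 to 0.010 for LDHA. The intervals of NOP58 (-0.177 to 0.024), NIP7 (-0.184 to 0.114) and WDR43 (-0.165 to 0.050) held their HepG2 values of -0.149, -0.148 and -0.116. Those of the other genes called in HepG2 did not hold theirs, although the HepG2 values have errors of their own. The test of the difference itself is given below. For all genes the call depended on the fit: limma on the deposited log2 values called 60 higher and 76 lower, against 89 and 27 in the edgeR fit.

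The genes named first in HepG2 can be read in the same way in SK-Hep1. NPM1 had 1955 and 1954 CPM with the miR-17 TuD, against 2039 and 2007 CPM with the NC TuD, a log2 fold change of -0.050 ± 0.039 with an interval from -0.13 to 0.029. GNL3 had 175 and 175 CPM, against 172 and 182 CPM, and PPAT had 46.4 and 45.0 CPM, against 46.8 and 45.3 CPM. The GNL3 and PPAT libraries of the arms were interleaved. FBL, at 177 and 174 CPM against 169 and 173 CPM, and ODC1, at 292 and 284 CPM against 260.2 and 292 CPM, were not called, at 0.036 ± 0.050 and 0.062 ± 0.047. LDHA had 2080 and 2111 CPM with the miR-17 TuD, against 2024 and 1919 CPM with the NC TuD. Its groups did not overlap, at a log2 fold change of 0.088 ± 0.039 (edgeR adjusted p = 0.502), and it was called when SK-Hep1 libraries were fitted on their own. NOP58, at 158 and 165 CPM against 166 and 174 CPM, and MYBBP1A, at 152 and 149.7 CPM against 139.5 and 147 CPM, came next by p (edgeR adjusted p = 0.73 and 0.779). Neither had overlapping groups.

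**Figure D3:**
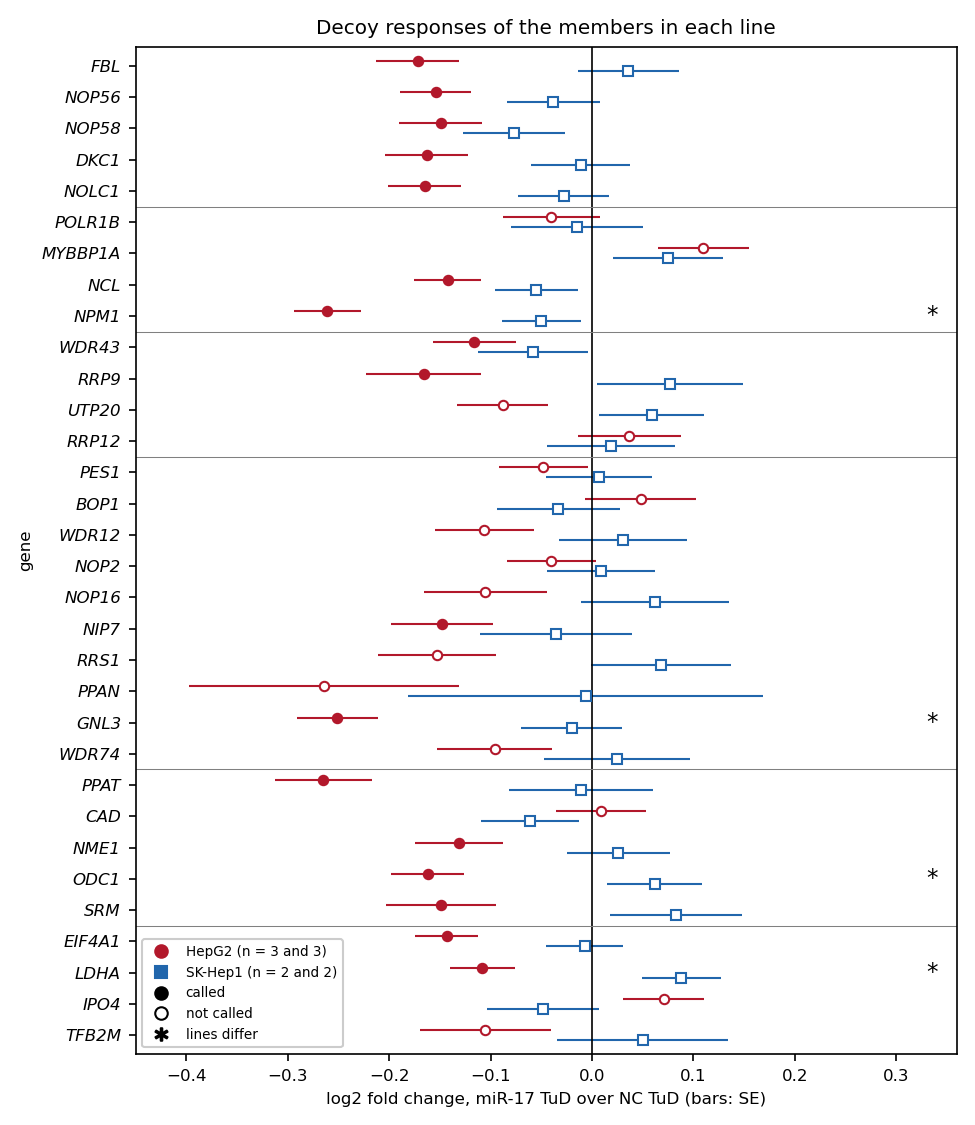
Log2 fold change of the miR-17 TuD over the NC TuD for each of the 32 genes in HepG2 (red circles, n = 3 and 3) and SK-Hep1 (blue squares, n = 2 and 2), with SE bars; filled symbols are called at an edgeR adjusted p under 0.05 and stars mark genes whose responses differ between the lines. The 17 filled symbols are all from HepG2 and all left of 0, and 4 genes carry a star.

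The responses of the lines were set against each other in the same fit, as the SK-Hep1 log2 fold change minus the HepG2 one. The difference was called for 4 of 32 genes, NPM1, GNL3, ODC1 and LDHA, all higher in SK-Hep1, where 1.24% of all genes were called higher and 2.51% lower. For NPM1 it was 0.21 ± 0.051 (edgeR adjusted p = 0.00759), for ODC1 0.22 ± 0.059 (0.0179), for GNL3 0.23 ± 0.064 (0.0257) and for LDHA 0.196 ± 0.050 (0.0136). The median over the 32 genes was 0.14, and 27 were above 0. FBL, at 0.21 ± 0.065, and PPAT, at 0.25 ± 0.085, missed the threshold (edgeR adjusted p = 0.0542 and 0.0885). DESeq2 called 5, the 4 above and EIF4A1. None of the 4 calls held under all 16 alternatives. NPM1 lost its call without SK-Hep1 NC TuD replicate 2. LDHA lost it without that library, without HepG2 NC TuD replicate 1 and without SK-Hep1 miR-17 TuD replicate 2. ODC1 lost it on the deposited log2 values and without HepG2 miR-17 TuD replicate 1, SK-Hep1 NC TuD replicate 1 or SK-Hep1 miR-17 TuD replicate 1. GNL3 lost it with total counts as the only scaling, with the replicate number as a block, and without HepG2 NC TuD replicate 1, SK-Hep1 NC TuD replicate 1 or either SK-Hep1 miR-17 TuD library. Under every alternative the 4 differences stayed above 0, between 0.14 and 0.31. With total counts as the only scaling the split of all calls was 90 higher to 427 lower, against 165 to 335.

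Other genes of the same pathways, from lists that hold none of the 32, had medians below 0 in HepG2 and shares of calls that differed by list, where 8.58% of all genes were called lower and 10.7% higher. Of 47 large subunit assembly factors 13 fell and 0 rose, with a median log2 fold change of -0.087. Of 42 small subunit processome genes 9 fell and 0 rose, at a median of -0.078. These counts moved with single libraries: large subunit calls numbered 7 without replicate 1 of either arm. Small subunit calls numbered 3 without either of those, 4 without replicate 2 of either arm, and 15 without miR-17 TuD replicate 3. The large subunit genes with the smallest adjusted p were NSA2, PAK1IP1 and DDX21, at -0.29 ± 0.054, -0.26 ± 0.056 and -0.17 ± 0.038, all called under every alternative. Of 13 further snoRNP genes 2 fell, led by GAR1, a core H/ACA protein, at -0.35 ± 0.081. The other was NHP2L1, whose call was lost under 9 of 17 alternatives, among them without replicate 1 or 3 of the miR-17 TuD arm or replicate 2 or 3 of the NC TuD arm. All 13 were below 0. Of 20 RNA polymerase I genes 2 fell (POLR1D and TAF1B), or 10%, which is near the 8.58% over all genes, and 0 fell without miR-17 TuD replicate 2.

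Genes whose products make up or load the ribosome were counted in separate lists, beside 8.58% of all genes called lower in HepG2 and 10.7% higher. Of 78 genes for cytosolic ribosomal proteins 69 fell and 0 rose in HepG2, all 78 were below 0, at a median of -0.16, and the median in SK-Hep1 was -0.002 with 0 called. The difference between the responses of the lines was called for 24 of these 78, all higher in SK-Hep1, where 1.24% of all genes were called higher. It was called for between 5 and 29 when single libraries were left out, the lowest being without SK-Hep1 miR-17 TuD replicate 2. Of 19 genes of cap-dependent translation initiation 8 fell and 0 rose, with 15 below 0, and 5 fell without miR-17 TuD replicate 1. EIF3B, a scaffold of the initiation complex, stood at 374, 380.2 and 370.4 CPM with the miR-17 TuD, against 416, 420.3 and 425 CPM with the NC TuD. Its groups did not overlap, at -0.165 ± 0.035 (edgeR adjusted p = 0.000262).

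Beside PPAT, ODC1 and the other nucleotide and polyamine genes above, the wider synthesis list was mixed: 7 of 30 fell and 1 rose. SAT1, which acetylates polyamines for export and breakdown, fell in HepG2 to 329, 337 and 350.1 CPM with the miR-17 TuD, against 391, 405 and 384 CPM with the NC TuD, at -0.22 ± 0.038. In SK-Hep1 it had 77.1 and 69.5 CPM with the miR-17 TuD, against 59.7 and 64.7 CPM with the NC TuD, groups that did not overlap. It was there the 1 gene called among the pathway lists, at 0.235 ± 0.061 (edgeR adjusted p = 0.0432), a call lost under 7 of 17 alternatives, among them without either SK-Hep1 NC TuD library, SK-Hep1 miR-17 TuD replicate 1, or replicate 1 of either HepG2 arm. RRM2, a ribonucleotide reductase subunit, was the gene of that list that rose in HepG2, at 0.199 ± 0.038. Of 19 glycolysis genes, the neighbours of LDHA in metabolism, 4 fell and 3 rose.

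MYC itself and its partners were measured as 12 tested genes, of which 1 fell and 1 rose in HepG2. Each is 8.33% of the list, near the 8.58% of all genes called lower and below the 10.7% called higher. MYC had 236, 243 and 223 CPM with the miR-17 TuD, against 264, 245 and 264 CPM with the NC TuD, at -0.14 ± 0.040 (edgeR adjusted p = 0.00743). Its groups did not overlap but came close, and the call did not hold when NC TuD replicate 1 was left out, nor without replicate 3 of the miR-17 TuD arm. In SK-Hep1 it had 129 and 134 CPM with the miR-17 TuD, against 134 and 137 CPM with the NC TuD, at -0.047 ± 0.053. MXD4, which competes with MYC for MAX, rose in HepG2 to 51.9, 54.0 and 53.8 CPM with the miR-17 TuD, against 45.5, 42.5 and 47.9 CPM with the NC TuD, at 0.23 ± 0.061 (edgeR adjusted p = 0.00391).

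**Figure D4:**
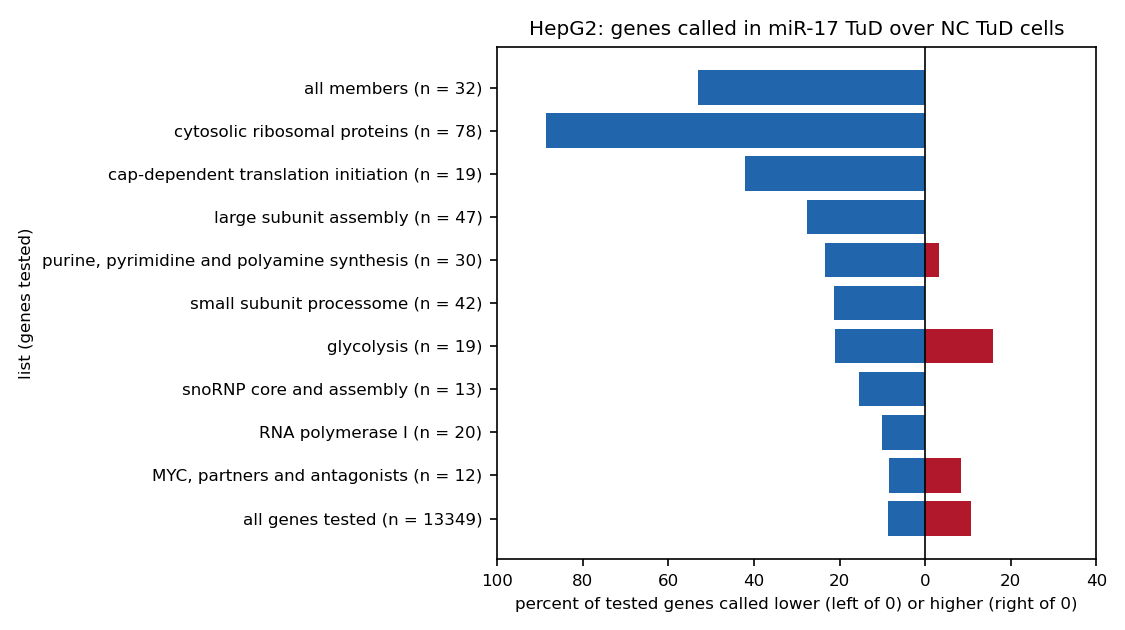
Percent of tested genes called lower (blue, left of 0) or higher (red, right of 0) with the miR-17 TuD in HepG2, for the 32 genes, for 9 lists that hold none of them, and for all 13349 genes. The 32 genes (53.1% lower) have a smaller share than the ribosomal proteins (88.5% lower), and all genes are at 8.58% lower and 10.7% higher.

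Between the lines, by contrast, the 32 genes differed in both directions and by far larger amounts. In NC TuD cells, SK-Hep1 was lower than HepG2 for 16 of 32 genes and higher for 9, where 42.8% of all genes were called lower and 43.9% higher. In miR-17 TuD cells SK-Hep1 was lower for 11 and higher for 14, where 43.1% and 44.1% of all genes were. Every SK-Hep1 library was below every HepG2 library for 17 of the 32 genes in NC TuD cells (44.3% of all genes) and above for 10 (46.1% of all genes). In miR-17 TuD cells this was so for 14 genes below (44.4% of all genes) and 14 above (45.9% of all genes). Counting both directions, the 32 genes were called no more often than all genes were. For 20 of the 32 genes the call was the same in both arms, 11 lower and 9 higher, and 0 were called in opposite directions. Of all 13349 genes, 11022 were called in both arms, 5439 lower in both, 5565 higher in both and 18 in opposite directions. The medians were -0.080 in NC TuD cells and -0.013 in miR-17 TuD cells.

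The genes lowest in SK-Hep1 were spread over several roles. IPO4 had 133 and 143 CPM in SK-Hep1 with the NC TuD, against 351, 346 and 373 CPM in HepG2 with the NC TuD, at a log2 fold change of -1.37 ± 0.049. PPAT had 46.8 and 45.3 CPM in SK-Hep1, against 115, 119.7 and 112 CPM in HepG2, at -1.33 ± 0.059. The lines did not come near each other for either gene. NIP7, NOP56 and ODC1 differed by -1.25 ± 0.063, -1.10 ± 0.042 and -1.05 ± 0.043. CAD led the genes that were higher, with 232 and 233 CPM in SK-Hep1 with the NC TuD, against 105, 104.7 and 107 CPM in HepG2, at 1.14 ± 0.046. BOP1, EIF4A1, NPM1, UTP20 and LDHA were also higher in SK-Hep1, by 0.76, 0.39, 0.38, 0.355 and 0.35 on the log2 scale. PPAT and CAD, enzymes at the start of purine and of pyrimidine synthesis, thus differed in opposite directions between the lines. In miR-17 TuD cells IPO4 was again lowest, at -1.49 ± 0.049, followed by NIP7 at -1.13 ± 0.064 and PPAT at -1.08 ± 0.060, and CAD was again highest, at 1.07 ± 0.046.

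Genes that fell with the miR-17 TuD in HepG2 came to stand nearer to, or further from, SK-Hep1 depending on the gene. The contrast between the lines shares these libraries with the decoy contrasts, so the values are given side by side only. FBL averaged 176 ± 1.82 CPM in SK-Hep1 and 159 ± 6.07 CPM in HepG2 with the miR-17 TuD (called, 0.15 ± 0.046), and 171 ± 3 and 179 ± 3.21 CPM with the NC TuD (not called, -0.061 ± 0.046; SD, n = 2 and 3). For GNL3 the averages were 175 ± 0.313 CPM in SK-Hep1 and 184 ± 4 CPM in HepG2 with the miR-17 TuD (not called, -0.075 ± 0.046), and 177 ± 7.23 and 219 ± 7.95 CPM with the NC TuD (called, -0.31 ± 0.045). The sign of the FBL difference was opposite between arms, although its change between arms is the one that missed the threshold above, and the GNL3 gap was narrower with the miR-17 TuD.

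**Figure D5:**
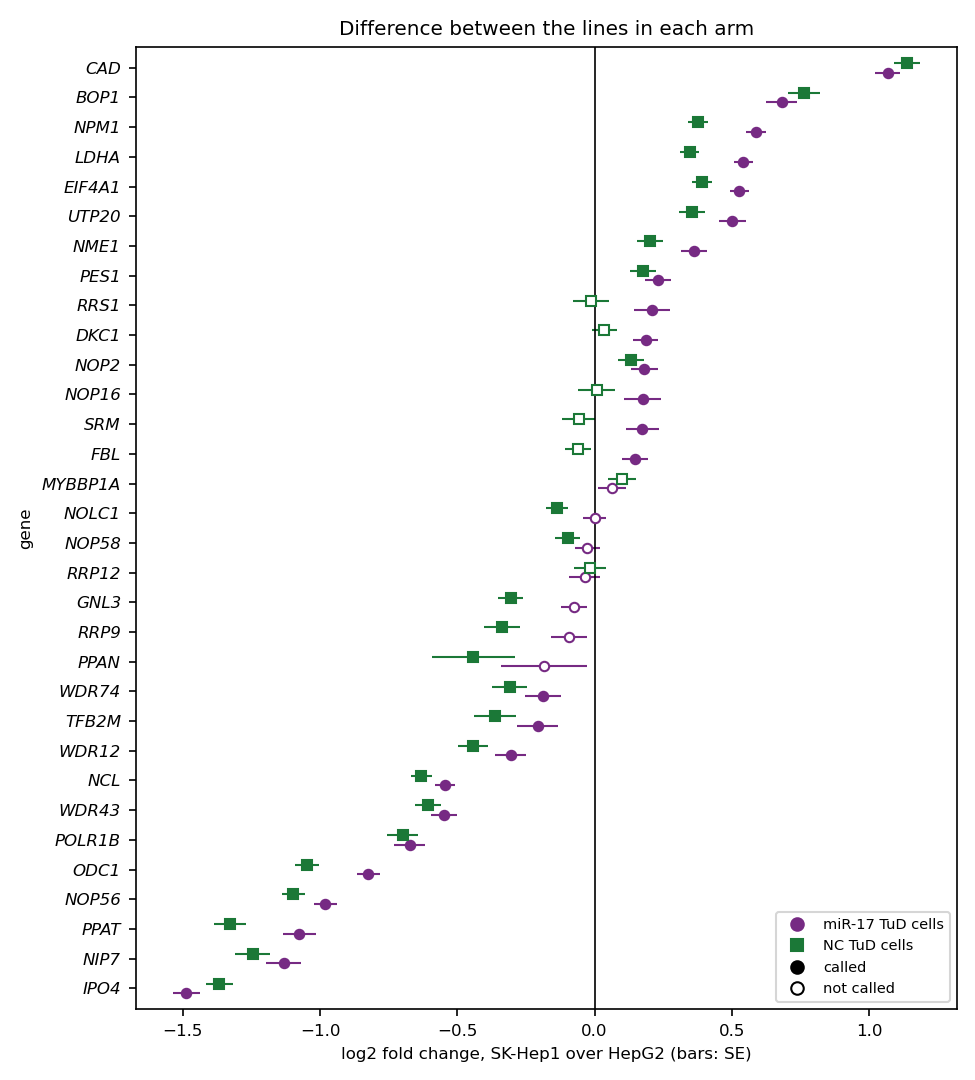
Log2 fold change of SK-Hep1 over HepG2 for each of the 32 genes in miR-17 TuD cells (purple circles) and NC TuD cells (green squares), with SE bars; filled symbols are called at an edgeR adjusted p under 0.05. CAD and BOP1 are at the right end and IPO4, NIP7, PPAT, NOP56 and ODC1 at the left end in both arms.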

How the data were processed

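Stable HepG2 and SK-Hep1 lines with the miR-17 TuD or the NC TuD were sequenced as 50 bp read pairs from 150 ng of total RNA with an unstranded kit, per the labels' protocols. The files hold raw counts, deposited by the authors as 1 list of genes a library, and 1 log2 matrix that they deposited for 13658 genes in all libraries. Per the submitters' processing notes, the tools were FastQC, STAR, SAMtools, HTSeq 0.5.4p5 and limma, with hg19; the series text differs, with Bowtie, TopHat, RSEM and mouse, and the symbols in the files are human. The deposited log2 values equal log2 of the count plus 0.5 over 1 library size per library, within 5.2e-14. Entries for reads outside genes (11.6% to 14.1% of a column) or otherwise uncounted were left out of library sizes.

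The test was that of edgeR 4.0.16 (R 4.3.3) on the counts (filterByExpr by group, TMM, robust quasi-likelihood fit of 4 group means over 10 libraries), in 5 contrasts with Benjamini-Hochberg adjustment over 13349 genes. SE was taken as the log2 fold change divided by the square root of its F. The fit was tested on simulated data. Within groups, any pair of libraries differed beyond sampling noise (chi-square over degrees of freedom 1.39 to 3.64). Alternatives were other scalings, no filter, DESeq2 1.42.0, limma 3.58.1 on the deposited matrix, only the groups of the contrast, a replicate block, and leaving out each library. In HepG2, same-numbered libraries did not deviate together (r from -0.16 to 0.018), while libraries of unlike number had r from -0.061 to 0.171. Replicate numbers were therefore not taken as pairs in the main fit. In SK-Hep1, the 2 libraries of an arm deviate from their mean as mirror images, so the r of -0.055 cannot test pairing. Values in every library are given for up to 2 genes a role with the smallest adjusted p in HepG2, the 3 smallest in SK-Hep1, and NCL, NPM1, FBL, ODC1 and LDHA in any case; of other lists, up to 3 called genes with the smallest p, and MYC. Genes quoted in the comparison between the lines and in the ranking per length were chosen after their values were seen. The 32 genes, the roles and the lists were chosen with earlier results of these data known. Exon lengths and 3′UTRs come from GENCODE 29, promoters and microRNAs from RefSeq.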

Additional observations from a re-analysis of the deposited data

Results flagged for a closer look

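For 4 of the 32 genes the response to the decoy differed between the lines by the test of the difference itself (SK-Hep1 log2 fold change minus the HepG2 one, edgeR). The differences were 0.212 for NPM1, 0.231 for GNL3, 0.224 for ODC1 and 0.196 for LDHA. Each of the 4 fell in HepG2, in 3 of 3 miR-17 TuD libraries relative to every NC TuD library, and none was called in SK-Hep1. In SK-Hep1 the log2 fold changes were -0.050 for NPM1, -0.020 for GNL3, 0.062 for ODC1 and 0.088 for LDHA. Groups had 2 or 3 libraries, so single libraries that stand apart within a group were not sought.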

How the results depend on the processing

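No result changed sign where it was called, in any alternative. With total counts as the only scaling, 11 of the 32 genes fell in HepG2 and 1 rose, against 17 and 0 with TMM, and the medians were -0.105 in HepG2, 0.107 for the difference between responses and -0.023 between the lines in NC TuD cells. That scaling moved the median of all genes by at most 0.056. Leaving out single libraries gave 12 to 17 fallen genes, 0 to 2 risen ones and medians of -0.152 to -0.115 in HepG2; medians of -0.026 to 0.033 in SK-Hep1; 2 to 6 called differences between responses; and medians between the lines of -0.110 to -0.057 in NC TuD cells and -0.017 to 0.031 in miR-17 TuD cells. Fitting SK-Hep1 alone called 1 of the 32 higher. Over all genes, HepG2 calls numbered 694 lower by DESeq2 (1146 by edgeR) and 895 higher by limma (1425 by edgeR), with 755 to 1229 lower and 1038 to 1465 higher without single libraries. SK-Hep1 calls numbered 44 lower without the filter, 76 by limma and 89 with its own groups, against 27, and 185 higher with its own groups, against 89; without single libraries they were 16 to 54 lower and 33 to 117 higher. For the difference, DESeq2 called 205 lower, against 335, total counts gave 90 higher and the replicate block 83, against 165, and single libraries gave 202 to 405 lower and 64 to 208 higher. The cause of these shifts was not tested. With the replicate block, 13 of the 32 fell in HepG2 and 3 differences were called. In each contrast between the lines, 21 of 25 calls held throughout. The fit to the groups of 1 contrast could not be run for the difference, which uses all 4. Depth limits PPAN most, at 71 to 121 counts, and 2 libraries an arm limit SK-Hep1.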
